A study of Homo sapiens with 6 samples.

Results

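Nucleoporins, importins and exportins were examined in the human bladder carcinoma line UC3 and in UC3DDP, a resistant subline derived from it. The members were the protein-coding genes of the deposited table whose symbols name a numbered nucleoporin (NUP), a karyopherin (KPNA, KPNB), an importin (IPO), an exportin (XPO), a transportin (TNPO), a Ran-binding protein (RANBP) or the mRNA export pair NXF1 and NXT1. This rule found 55 genes of the 18936 in the table, and used no measured value.

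RNA sequencing was performed on 3 libraries of UC3 and 3 libraries of UC3DDP. UC3 was untreated and parental, and UC3DDP had been selected by repeated cycles of drug and recovery. Per the study, which names the subline UC3-R, gemcitabine, a nucleoside analogue, and cisplatin, which crosslinks DNA, were given together at rising doses. The labels carry the drug only in the name of the line, and speak of T24 in the series text, of retinas in the extraction text and of a mouse build in the processing notes, while the sample titles name UC3. The gene identifiers are human, and 99.6% of the genes overlap their position in the GRCh38 annotation. Nothing in the labels says that the replicates were separate cultures, so p-values here cover the spread among the 6 libraries alone, and that spread may be technical. UC3DDP is a single selected population, so its differences from UC3 belong to this subline.

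Traffic between nucleus and cytoplasm passes through the nuclear pore complex, a ring of nucleoporins set in the nuclear envelope. Its scaffold consists of the Y complex and the inner ring, its central channel is filled with nucleoporins rich in phenylalanine-glycine repeats, and filaments reach into the cytoplasm while a basket faces the nucleus. Importins and exportins carry cargo through the channel. Importin alpha reads the classical nuclear localisation signal and is itself carried by importin beta, and the GTPase Ran, loaded with GTP in the nucleus, releases import cargo and locks export cargo onto exportins. Inhibitors of the exportin XPO1 are used against cancer.

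The UC3 libraries held 19467228 to 20803970 counts and the UC3DDP libraries 16757610 to 17254683. Values are given as CPM, the counts of a gene per 1000000 counts of the scaled library total. Among tested members the SD over the 3 libraries had a median of 2.84% of the mean in UC3 and 13.5% in UC3DDP. UC3DDP replicate 1 stood apart from the other 2 libraries of its line. Its fold changes were the most tilted by GC content, and it alone held counts of the epithelial cadherin CDH1, 159 against 0 in each of the other 5 libraries. PECAM1, an endothelial marker, had 47 counts there and 5 in each of the other UC3DDP libraries. Of 17 markers of bladder epithelium fixed as a list, 12 were in the table and 7 were tested, with KRT18 and KRT8 present and KRT19, EPCAM and the uroplakins UPK1A and UPK2 under 1 CPM in both lines. TP63, with 2, 0 and 1 counts in UC3 and 34, 40 and 36 in UC3DDP, was called higher in both fits. KRT7 was called higher without the offset only, at 1.47, and PPARG with it only, at 1.21. The share called higher was 28.6% in each fit, against 17.6% of all genes without the offset and 14.2% with it. The list summed to 223.7 to 232.6 CPM in UC3 and 350.8 to 445.1 CPM in UC3DDP. Of 3 mesenchymal markers VIM rose from 1516 ± 24 to 3186 ± 217 CPM without the offset, ZEB1 fell from 161 ± 1.99 to 24.7 ± 8.01 CPM in both fits and CDH2 was not called. The part of these lists in the members' values was not tested. Of 5 immune markers only CD14 was in the table, with a summed level of 0.0961 to 0.103 CPM in UC3 and 0.175 to 0.475 CPM in UC3DDP, and the 3 endothelial markers summed to 0.0517 to 0.298 CPM in UC3 and 0.407 to 3.98 CPM in UC3DDP.

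A gene was called when its adjusted p was under 0.05 and its absolute log2 fold change was over 1 in the quasi-likelihood test of edgeR, with Benjamini-Hochberg adjustment over all 15120 genes that passed the filter on low counts. Because the fold changes of this series follow the GC content of the transcripts, the test was repeated with an offset that takes out a smooth trend on GC content and transcript length in each library. Both fits are given. Of the 55 members 53 were tested. Of these 3 rose and 23 fell in UC3DDP, and 27 were not called. The share of members that fell was 43.4%, against 23.1% of all genes tested, and the share that rose was 5.66%, against 17.6%, with 40.7% of all genes called in either direction. Their median log2 fold change was -0.48, against 0.02 over all genes tested. With the offset 3 members rose and 7 fell, and the median was -0.19. The share that fell was then 13.2%, against 13.4% of all genes, so that with the offset the members fell about as often as genes in general, and 5.66% rose, against 14.2%. All 7 that fell with the offset had also fallen without it, whereas of the 3 that rose with it (NUP210, KPNA2 and NUP62CL) only NUP210 did so in both fits. Bulk counts cannot separate less RNA per cell from fewer cells of a kind.

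Of the 53 tested members, 34 had all 3 UC3DDP libraries below all UC3 libraries, 16 had all 3 above, and 3 overlapped (NUP214, NXT1 and NUP62CL). Together 94.3% did not overlap, against 83.7% of all genes tested, of which 41.6% lay below and 42.1% above. Without UC3DDP replicate 1 the counts were 1 higher and 22 lower, since NUP85, IPO13 and TNPO3, which lay just past the fold limit, dropped under it. With the offset and without that library they were 3 and 7, and the 10 genes were the same as with all libraries.

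**Figure D1:**
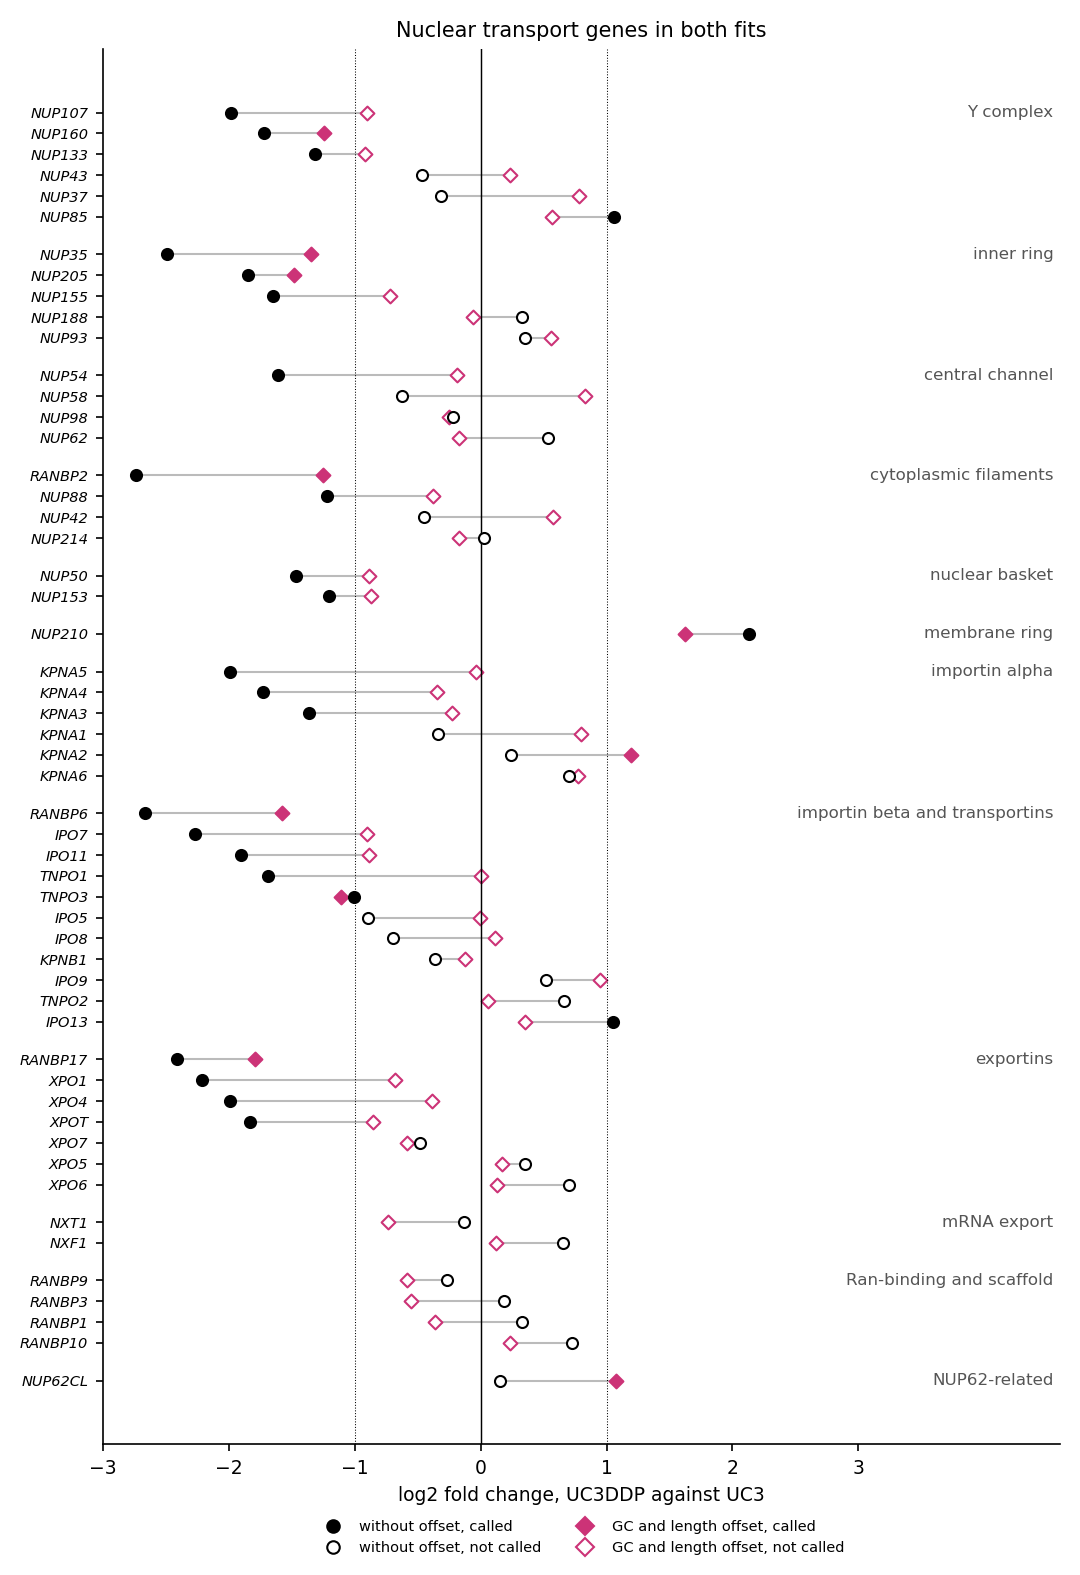
Each row is a tested member, grouped by role, and the horizontal axis gives the log2 fold change of UC3DDP against UC3. Circles are the edgeR estimates without the offset and diamonds those with the GC and length offset, filled where the gene was called, and dotted lines mark the fold limit. Of the 23 filled circles on the left 7 have a filled diamond, and NUP210 is filled in both fits on the right.

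Among the tested members the largest increase was that of NUP210, a membrane-spanning nucleoporin of the pore's lumenal ring (ENSG00000132182, chromosome 3, 13316235 to 13420322, GRCh38). It measured 70.4, 72.1 and 70.8 CPM in UC3 replicates 1, 2 and 3 and 344, 294 and 297 CPM in UC3DDP. The lines were far apart, and each spread little. Its log2 fold change was 2.13 (SE 0.083, edgeR adjusted p = 1.2e-07), a 4.39-fold rise that placed it at percentile 95.1 of all genes tested, and it stood at 1.63 with the offset (edgeR adjusted p = 1.46e-09). Leaving out single libraries moved the log2 fold change between 2.06 and 2.17.

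The largest decrease without the offset was that of RANBP2, the giant Ran-binding nucleoporin of the cytoplasmic filaments (ENSG00000153201, chromosome 2, 108719482 to 108785809). It stood at 307, 312 and 290 CPM in the UC3 libraries and at 30.6, 50.0 and 55.8 CPM in UC3DDP. All UC3DDP libraries lay far below UC3, with replicate 1 lowest. The log2 fold change was -2.74 (SE 0.191, edgeR adjusted p = 1.66e-06), or 6.66-fold lower, and -1.25 with the offset. RANBP2 has copies of much of its sequence in the RGPD genes, so the split of reads among them is uncertain. The 5 RGPD genes of the table held 123, 80 and 139 counts together in UC3 and 28, 70 and 10 in UC3DDP, beside 6194, 6030 and 6039 counts of RANBP2 in UC3 and 516, 859 and 942 in UC3DDP.

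RANBP6 (ENSG00000137040, chromosome 9, 6011025 to 6015625), a relative of the importin IPO5, measured 90.9, 83.5 and 82.6 CPM in UC3 and 9.20, 16.0 and 15.2 CPM in UC3DDP. It fell by 2.67 on the log2 scale (SE 0.172, edgeR adjusted p = 1.14e-06) and stood at -1.58 with the offset. NUP35, an inner ring nucleoporin that contacts the membrane (ENSG00000163002, chromosome 2, 183117513 to 183161680), measured 49.8, 49.3 and 45.9 CPM in UC3 and 6.77, 10.1 and 8.89 CPM in UC3DDP. It fell by 2.49 (SE 0.127, edgeR adjusted p = 3.82e-07) and stood at -1.34 with the offset.

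Without the offset RANBP2, RANBP6 and NUP35 had the lowest log2 fold changes of the family, at 6.66-fold, 6.35-fold and 5.62-fold lower, and with it the lowest were RANBP17, RANBP6 and NUP205. Without UC3DDP replicate 2, RANBP6 and RANBP2 were level at -2.82.

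To show what lies upstream of genes on both sides of the comparison, the 250 bases before the RefSeq transcription start (GRCh38.p14, written 5′ to 3′ on the strand of the gene) are given for NUP210, which rose, and for NUP205 and RANBP6, which fell in both fits. Capitals mark matches on either strand to a CCAAT box (CCAAT), a GC box (GGGCGG), an ETS core (CCGGAA) or a cell cycle homology region (TTTGAA), none of which contains another.

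NUP210, chr3:13420323-13420572, minus strand: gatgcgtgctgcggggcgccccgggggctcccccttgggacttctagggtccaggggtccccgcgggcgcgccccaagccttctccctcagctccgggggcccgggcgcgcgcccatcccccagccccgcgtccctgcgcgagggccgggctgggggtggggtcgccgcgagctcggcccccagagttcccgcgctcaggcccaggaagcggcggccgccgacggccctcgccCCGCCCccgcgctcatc

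NUP205, chr7:135557667-135557916, plus strand: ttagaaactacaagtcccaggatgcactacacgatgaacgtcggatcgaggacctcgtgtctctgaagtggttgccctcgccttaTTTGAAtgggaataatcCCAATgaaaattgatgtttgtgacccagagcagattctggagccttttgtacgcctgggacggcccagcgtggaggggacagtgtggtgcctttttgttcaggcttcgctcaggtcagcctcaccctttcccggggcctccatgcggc

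RANBP6, chr9:6015625-6015874, minus strand: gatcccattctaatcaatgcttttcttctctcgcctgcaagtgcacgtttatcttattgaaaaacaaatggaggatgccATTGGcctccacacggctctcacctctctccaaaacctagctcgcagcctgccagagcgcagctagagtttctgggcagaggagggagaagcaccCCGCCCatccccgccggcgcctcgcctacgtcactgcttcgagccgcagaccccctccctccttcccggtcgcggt

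The NUP210 window was 80.8% G or C, that of NUP205 54.0% and that of RANBP6 58.4%. Of the 55 members 48 matched a promoter in the RefSeq table. An ETS core stood in 37.5% of these, against 14.5% of all 35116 promoters in the table. The CCAAT box was in 45.8% against 32.0%, the GC box in 58.3% against 42.6% and the TTTGAA element in 16.7% against 13.3%. Among the 21 members with a promoter that fell without the offset 10 held an ETS core, and among the 27 others 8 did. The CCAAT box went the other way, in 38.1% of those that fell and 51.9% of the others. The GC box was in 57.1% and 59.3%, and the TTTGAA element in 23.8% and 11.1%. Of the 7 that fell in both fits 3 held an ETS core. A match is a description of the letters and not a binding site.

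**Figure D2:**
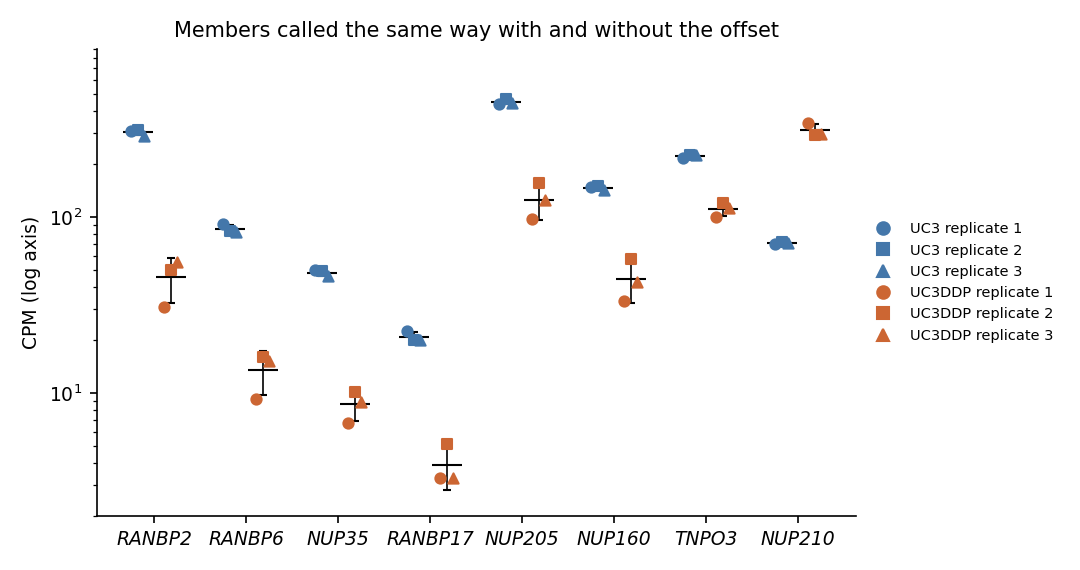
CPM on a log axis is given for the 8 members called the same way with and without the offset, in each of the 3 UC3 and 3 UC3DDP libraries, with black bars for the mean and SD. The UC3DDP libraries lie below UC3 for 7 genes and above it for NUP210, with no overlap. The genes were picked by their calls in these same libraries, so their separation follows from the choice. Of all genes tested 83.7% did not overlap. UC3DDP replicate 1 is the lowest library in 6 of the 7 that fell, RANBP17 being the exception by a margin of 3.26 against 3.27 CPM.

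In the Y complex, the scaffold of the outer rings, 3 of 6 members fell and 1 rose (50% lower, against 23.1% of all genes). With the offset 1 fell and none rose (16.7% lower, against 13.4%). NUP107 measured 183, 181 and 179 CPM in UC3 and 33.4, 58.6 and 45.3 CPM in UC3DDP, and fell by 1.98 on the log2 scale (SE 0.170, edgeR adjusted p = 5.41e-06). NUP160 (ENSG00000030066, chromosome 11, 47778087 to 47848555) fell by 1.72, from 148, 149 and 143 CPM to 33.3, 57.4 and 43.0 CPM. NUP133 fell by 1.31, from 77.7, 81.8 and 76.0 CPM to 24.2, 40.9 and 29.6 CPM. All 3 were lowest in UC3DDP replicate 1. They did not overlap between the lines, and neither did 83.7% of all genes tested. With the offset only NUP160 still passed, at -1.25, while NUP107 and NUP133 stood at -0.91 and -0.92. NUP85 moved against its partners, from 78.3, 77.6 and 72.2 CPM to 179, 150 and 148 CPM. Its log2 fold change of 1.06 (SE 0.092, edgeR adjusted p = 5.72e-06) was 0.97 without UC3DDP replicate 1 and 0.57 with the offset, both under the limit. NUP43 had 140.2, 142 and 143 CPM in UC3 and 96.9, 111 and 100.1 CPM in UC3DDP. It was not called at -0.46, nor was NUP37 at -0.32, and with the offset they stood at 0.24 and 0.78. The 3 further Y complex genes that the rule leaves out also differed among themselves. AHCTF1, which seeds pore assembly on chromatin, fell by 2.47 and still passed with the offset at -1.29, SEH1L fell by 1.42 and stood at -0.52 with the offset, and SEC13, which also serves vesicle coats, stood at 0.06.

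The inner ring split into 3 members that fell and 2 that did not (60% lower, against 23.1% of all genes). With the offset NUP205 and NUP35 fell (40% lower, against 13.4%). NUP205, a large scaffold protein (ENSG00000155561, chromosome 7, 135557917 to 135648757), measured 441, 466 and 446 CPM in UC3 and 96.9, 155 and 124 CPM in UC3DDP, and fell by 1.85 (SE 0.148, edgeR adjusted p = 3.74e-06, with the offset -1.49). NUP155 fell by 1.65, from 272, 276 and 267 CPM to 70.7, 102 and 86.7 CPM, but stood at -0.72 with the offset. NUP188, the relative of NUP205 that takes the same place in other copies of the inner ring, measured 101.3, 100.4 and 105 CPM in UC3 and 134, 124 and 129 CPM in UC3DDP, a log2 fold change of 0.33. NUP93, which binds both of them, stood at 0.36. In UC3 the ratio of NUP188 to NUP205 in CPM per kilobase of exon was 0.253, 0.237 and 0.259, and in UC3DDP it was 1.52, 0.877 and 1.14. Without the offset NUP205 thus exceeded NUP188 per length in all 3 UC3 libraries and in 1 of the 3 UC3DDP libraries. The mean log2 ratio was -2.002 in UC3 and 0.20 in UC3DDP, a difference of 2.203, and the difference in log2 fold change between the pair was 1.43 with the offset.

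In the central channel 1 of 4 members fell (25% lower, against 23.1% of all genes). None fell with the offset, where 13.4% of all genes did. NUP54 fell by 1.61, from 66.9, 64.3 and 64.1 CPM to 16.8, 25.0 and 22.3 CPM (SE 0.128, edgeR adjusted p = 3.48e-06), but stood at -0.19 with the offset. Its partners NUP58 and NUP62 stood at -0.62 and 0.53, and at 0.83 and -0.17 with the offset, though 20.1% of the exon bases of NUP62 are shared with other genes. NUP98, the highest of the 4 per length in UC3, measured 225, 231 and 235 CPM in UC3 and 194, 209 and 189 CPM in UC3DDP, a log2 fold change of -0.22. On the cytoplasmic side NUP88 fell by 1.22, from 172, 182 and 177 CPM to 68.8, 84.9 and 74.4 CPM, and stood at -0.38 with the offset. Of the exon bases of NUP88 35.5% are shared with genes on the other strand, and the counting is not stated to use strand, so its reads cannot be told from theirs. NUP214, its binding partner, did not differ beyond the spread, with 105, 113 and 115 CPM in UC3 and 117, 112 and 111 CPM in UC3DDP (log2 fold change 0.03, SE 0.071, edgeR adjusted p = 0.698). NUP42 was not called, at -0.45 and, with the offset, 0.58.

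Both members of the nuclear basket fell without the offset (100% lower, against 23.1% of all genes). Neither passed with it (0% lower, against 13.4%). NUP50 went from 156, 157 and 155 CPM to 47.2, 62.1 and 59.5 CPM (log2 fold change -1.47, with the offset -0.88), and NUP153 from 258, 275 and 267 CPM to 94.5, 134 and 120 CPM (log2 fold change -1.20, with the offset -0.87). TPR, which forms the basket's filaments and is not among the members, fell by 2.83 and passed with the offset at -1.56.

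Importin alpha proteins differ in the cargo they prefer, and the make-up of the family differed between the lines. Of 7 members 6 were tested and 3 fell (50% lower, against 23.1% of all genes). Summed over the family, UC3 held 1103 ± 16.7 CPM and UC3DDP 921 ± 63.5 CPM (SD, n = 3). These sums carry no offset. The median log2 fold change of the 6 tested genes was -0.85 without the offset and 0.37 with it. KPNA2, which is abundant in proliferating cells, measured 387, 410.2 and 398 CPM in UC3 and 446, 490.2 and 473 CPM in UC3DDP. Its log2 fold change was 0.24 (SE 0.066, edgeR adjusted p = 0.00797), under the fold limit, and with the offset it was 1.20 and passed. KPNA4 fell by 1.72, from 197, 202 and 203 CPM to 49.6, 67.9 and 64.5 CPM. KPNA3, its closest relative, fell by 1.36, from 194, 202 and 210 CPM to 64.7, 90.0 and 81.0 CPM. KPNA5 fell by 1.99, from 39.6, 36.6 and 37.7 CPM to 7.60, 11.6 and 9.30 CPM. With the offset these 3 stood at -0.35, -0.22 and -0.04, so none passed.

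KPNA1 and KPNA6 are relatives of KPNA5 and did not pass. KPNA1 measured 154, 154 and 154 CPM in UC3 and 106, 134 and 127 CPM in UC3DDP (log2 fold change -0.34, with the offset 0.80). KPNA6 measured 112, 108 and 111 CPM in UC3 and 178, 184 and 176 CPM in UC3DDP (log2 fold change 0.71, with the offset 0.77). KPNA7, known from oocytes and embryos, had 0, 2 and 0 counts in UC3 and 9, 5 and 7 counts in UC3DDP, and was too low to be tested. Scaled for library size, the summed counts of UC3DDP to UC3 stood at a ratio of 12.4, with an exact 95% interval of 3.04 to 109.5 that covers counting error only. As a share of summed CPM per kilobase of exon, KPNA2 made up 64.2%, 65.2% and 64.0% of importin alpha transcripts in UC3 and 78.6%, 76.9% and 77.4% in UC3DDP. The share of KPNA3 was 15.3 ± 0.431% in UC3 and 6.05 ± 0.649% in UC3DDP, that of KPNA4 was 7.18 ± 0.067% and 2.21 ± 0.237%, and that of KPNA6 was 4.80 ± 0.187% and 7.99 ± 0.395%. The share of KPNA1 was 7.16 ± 0.174% and 5.77 ± 0.363%. The lines did not overlap in any of these shares, which are parts of a single total and so depend on each other. In CPM 83.7% of all genes tested did not overlap, and no such rate was taken for shares. The shares carry no adjustment for GC content, and with the offset the log2 fold changes of KPNA1, KPNA2 and KPNA6 were 0.80, 1.20 and 0.77. Shares with the offset were not taken.

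**Figure D3:**
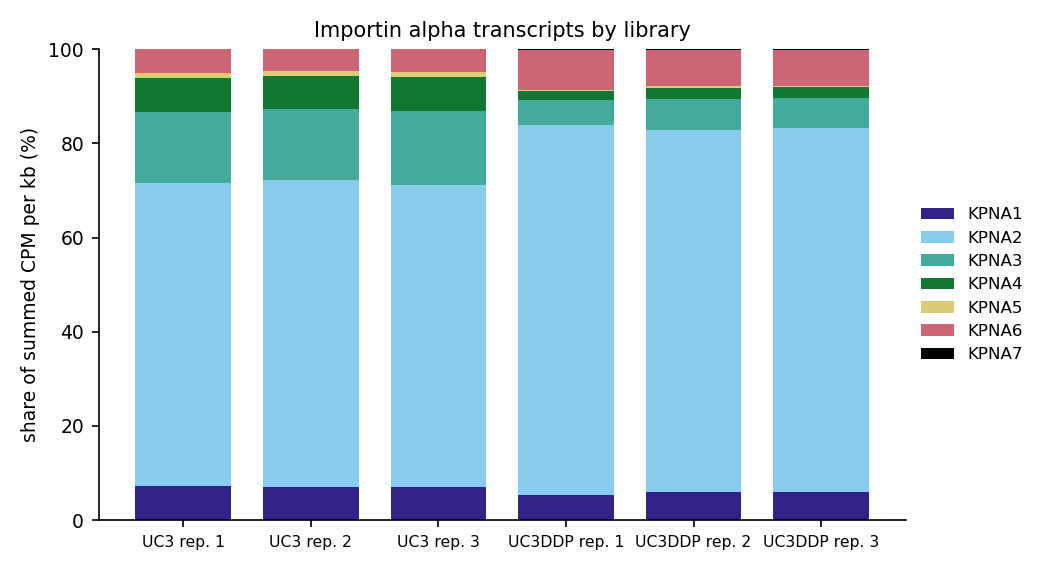
Stacked bars give, for each of the 6 libraries, the share in percent of each of the 7 importin alpha genes in their summed CPM per kilobase of exon, without the offset. The KPNA2 segment covers 64.0% to 65.2% in UC3 and 76.9% to 78.6% in UC3DDP, and the KPNA3 and KPNA4 segments are smaller in UC3DDP.

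Among importin beta and the transportins 5 of 11 tested members fell and 1 rose (45.5% lower, against 23.1% of all genes). With the offset RANBP6 and TNPO3 fell and none rose (18.2% lower, against 13.4%). KPNB1, importin beta itself and the highest of its group per length, measured 858, 882 and 872 CPM in UC3 and 567, 785 and 681 CPM in UC3DDP, and its log2 fold change of -0.36 was under the limit (SE 0.106, edgeR adjusted p = 0.0112). IPO7, which imports ribosomal proteins among other cargo, fell by 2.27 from 805, 807 and 791 CPM to 120, 200.2 and 178 CPM (SE 0.163, edgeR adjusted p = 1.96e-06), and stood at -0.90 with the offset. IPO11 fell by 1.91, from 59.9, 61.6 and 62.7 CPM to 12.2, 20.2 and 16.8 CPM, and stood at -0.88 with the offset, though 21.5% of its exon bases are shared with other genes on its strand. TNPO1, which carries hnRNP proteins, fell by 1.69 from 488, 499 and 472 CPM to 115, 175 and 162 CPM, but was at 0.00 with the offset. TNPO3, which carries splicing factors rich in arginine and serine (ENSG00000064419, chromosome 7, 128954180 to 129055173), had 217, 227 and 226 CPM in UC3 and 100.6, 120.0 and 113 CPM in UC3DDP. Its log2 fold change was -1.005 (SE 0.082, edgeR adjusted p = 4.01e-06), just past the limit, and -1.11 with the offset (edgeR adjusted p = 2.63e-07). Without UC3DDP replicate 1 and without the offset it was -0.94 and no longer called.

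IPO13, a receptor that works in both directions, rose from 29.3, 25.95 and 27.1 CPM to 63.1, 55.7 and 51.5 CPM. The log2 fold change of 1.05 was 0.97 without UC3DDP replicate 1, 0.997 without UC3 replicate 2, and 0.35 with the offset, all under the limit. IPO5, IPO8, IPO9 and TNPO2 did not pass, at -0.90, -0.70, 0.52 and 0.66, and with the offset at -0.0059, 0.11, 0.95 and 0.06. Without UC3DDP replicate 2 and without the offset IPO5 was called, at -1.014. IPO4 had 9, 7 and 7 counts in UC3 and 3, 3 and 7 in UC3DDP. Scaled for library size, the summed counts of UC3DDP to UC3 stood at a ratio of 0.670, with an exact 95% interval of 0.312 to 1.379 for counting error only. Of its annotated exon bases 68.7% are shared with another gene on the same strand, and the study's methods do not say whether reads there were counted, so this level is uncertain.

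Of the 7 exportins and their relatives 4 fell and none rose (57.1% lower, against 23.1% of all genes). With the offset only RANBP17 fell and none rose (14.3% lower, against 13.4%). XPO1, the main exportin for proteins with a leucine-rich signal, measured 681, 688 and 705 CPM in UC3 and 110.4, 182 and 156 CPM in UC3DDP. It fell by 2.21 (SE 0.158, edgeR adjusted p = 1.89e-06), a 4.63-fold decrease, and stood at -0.68 with the offset, under the limit. In CPM per kilobase it was the fourth most abundant member in UC3, at 139 ± 2.47, and stood at 29.9 ± 7.27 in UC3DDP. XPOT, which exports tRNA, fell by 1.83 from 177, 183 and 179 CPM to 41.6, 61.8 and 48.4 CPM, and XPO4 by 1.99 from 82.1, 86.9 and 81.8 CPM to 15.1, 26.9 and 21.2 CPM. With the offset they stood at -0.85 and -0.39. RANBP17, a relative of XPO7 (ENSG00000204764, chromosome 5, 170861870 to 171300015), was low in UC3 at 22.3, 19.9 and 19.9 CPM and fell to 3.27, 5.12 and 3.26 CPM. Its log2 fold change was -2.41 (SE 0.160, edgeR adjusted p = 1.29e-06), and at -1.79 it had the lowest value of the family with the offset. XPO5, which exports microRNA precursors, XPO6, which exports actin, and XPO7 did not pass, at 0.35, 0.70 and -0.48, and with the offset at 0.17, 0.13 and -0.58. CSE1L, the exportin that returns importin alpha to the cytoplasm and is not among the members, fell by 2.39 and passed with the offset at -1.35.

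The mRNA export receptor NXF1 and its partner NXT1 were not called. NXF1 measured 63.7, 69.3 and 69.8 CPM in UC3 and 116, 100.9 and 101.3 CPM in UC3DDP (log2 fold change 0.65, with the offset 0.12), and NXT1 25.4, 29.9 and 27.4 CPM and 28.1, 21.9 and 25.2 CPM (log2 fold change -0.14, edgeR adjusted p = 0.266, with the offset -0.73). None of the 4 Ran-binding and scaffold members was called in either fit. Of all genes tested 40.7% were called without the offset and 27.6% with it, so most genes were not called. RANBP1, which helps Ran to hydrolyse GTP in the cytoplasm and had the highest level of all members per length, measured 266, 283 and 287 CPM in UC3 and 379, 326 and 344 CPM in UC3DDP, a log2 fold change of 0.33 that turned to -0.36 with the offset. RANBP3, RANBP9 and RANBP10 stood at 0.19, -0.27 and 0.73, and with the offset at -0.55, -0.58 and 0.23. NUP62CL, a gene related to NUP62, had 1.09, 1.91 and 1.39 CPM in UC3 and 1.43, 1.86 and 1.60 CPM in UC3DDP. It was not called at 0.16, but passed with the offset at 1.08, while its CPM values, which carry no offset, overlapped between the lines.

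Without the offset the order of levels per length differed at the top. In UC3 the 6 highest members in CPM per kilobase were RANBP1 (228 ± 9.20), KPNA2 (202 ± 5.84), KPNB1 (144 ± 2.03), XPO1 (139 ± 2.47), IPO7 (130.0 ± 1.44) and IPO5 (129 ± 2.14), of which IPO7 and IPO5 did not differ beyond their spread. In UC3DDP the first 3 were the same, at 286 ± 22, 238 ± 11.3 and 112 ± 18.01, and NUP85 (74.5 ± 8.08) and IPO5 (69.4 ± 9.94) followed, which again did not differ beyond their spread. XPO1 and IPO7 ranked 12 and 16 there. These ranks carry no adjustment for GC content, and the offset left XPO1, IPO7 and NUP85 under the fold limit, at -0.68, -0.90 and 0.57.

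Related members can stand in for each other in part, so their ratio was taken in each library for 10 pairs in which both were tested. The lines did not overlap in any of the 10. In CPM 83.7% of single genes tested did not overlap, and no such rate was taken for ratios. The pairs are not all separate, since the ratio of KPNA1 to KPNA6 follows from those of KPNA1 to KPNA5 and KPNA5 to KPNA6. Each exact two-sided permutation test over the 6 libraries gave p = 0.10, the smallest p that 3 against 3 can give, and 0.10 after Benjamini-Hochberg adjustment over the 10. IPO7 exceeded IPO8 in UC3, with ratios of CPM per kilobase of 2.69, 2.68 and 2.65, and was below it in UC3DDP, with 0.849, 0.917 and 0.914. With the offset the difference between their log2 fold changes was -1.01 against -1.57 without it, smaller than the mean log2 ratio of 1.42 in UC3, so this exchange of order holds without the offset only. The ratio of TNPO1 to TNPO2 was 6.99, 7.11 and 6.82 in UC3 and 0.959, 1.65 and 1.54 in UC3DDP. The pair differs widely in GC content, 37.2% and 56.2%, and with the offset their log2 fold changes differed by -0.06 only. IPO5 and RANBP6 are near each other in GC content, 41.0% and 39.0%. Their ratio was 6.54, 7.23 and 7.07 in UC3 and 29.6, 22.8 and 21.1 in UC3DDP, and with the offset the difference in log2 fold change was 1.57 against 1.77 without it. For XPO7 and RANBP17 the ratio was 8.55, 9.98 and 9.78 in UC3 and 42.5, 28.1 and 41.8 in UC3DDP, and the difference with the offset was 1.21. KPNA3 and KPNA4, of near-equal GC content, had the smallest difference of the 10 without the offset, with 2.08, 2.12 and 2.19 in UC3 and 2.77, 2.81 and 2.66 in UC3DDP, while with the offset KPNA1 with KPNA6 and TNPO1 with TNPO2 differed less.

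**Figure D4:**
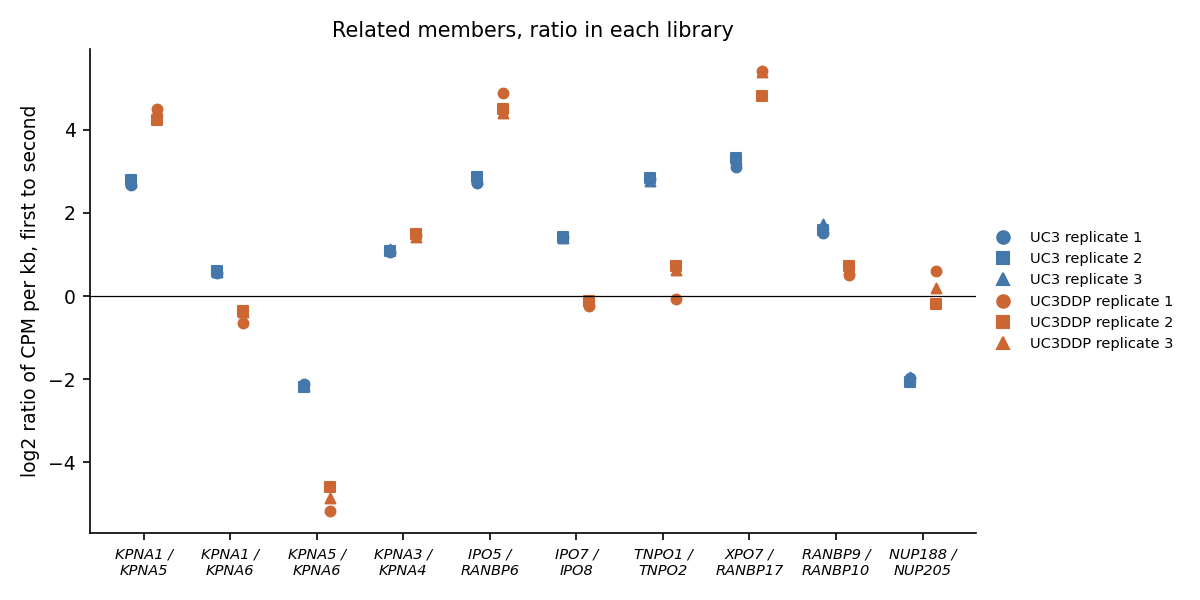
For 10 pairs of related members, points give the log2 ratio of CPM per kilobase of the first gene to the second in each of the 3 UC3 and 3 UC3DDP libraries, without the offset. The lines lie apart in every pair. The means for TNPO1 and TNPO2 are 2.80 and 0.43, for NUP188 and NUP205 -2.002 and 0.20, and for KPNA3 and KPNA4, the closest, 1.09 and 1.46.

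The members shared features that the rule did not use. The GC content of the longest transcript had a median of 42.5% over tested members and 47.6% over 12176 protein-coding genes tested, and exon length a median of 5151 and 3427 bases. Of the 31 members under 45% GC content 22 fell and 2 had a positive log2 fold change, KPNA2 and NUP62CL. Of the 22 members over 45% only TNPO3 fell, and 16 had a positive log2 fold change. Across the 53 members the log2 fold change correlated with GC content at Pearson's r of 0.77 and Spearman's rho of 0.76, as a description of genes measured in the same libraries. Over protein-coding genes tested they were 0.46 and 0.61, and with the offset the members' were 0.19 and 0.15. For exon length on a log2 scale r was -0.23.

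Protein-coding genes of like GC content were set beside these counts. These genes were divided into 5 bands of equal size by GC content. In the lowest band, up to 40.3%, 13 of 19 members fell (68.4%), and 59.8% of 2436 protein-coding genes did. The median log2 fold change there was -1.73 for the members and -1.25 for the genes, and with the offset -0.22 and 0.03. In the next band, up to 44.8%, 9 of 12 members fell (75%), against 34.9% of 2435 genes, and the median log2 fold change was -1.39 for the members and -0.57 for the genes. With the offset the members of that band had a median of -0.86, against 0.03. They are NUP133, NUP153, NUP155, NUP160, NUP205, NUP50, NUP88, RANBP17 and XPOT, which fell without the offset, and IPO5, IPO8 and NUP43, which were not called. In the 3 bands of higher GC content 1 of 22 members fell, where 11.2%, 4.39% and 3.00% of the protein-coding genes did. The tilt was present in every UC3DDP library. Between the bands of highest and lowest GC content over all genes, the log2 ratio to the UC3 mean differed by 2.36, 1.69 and 1.84 in UC3DDP replicates 1, 2 and 3, and the members' median ratio was -0.71, -0.43 and -0.52 in the same order. In 22 of the 23 members that fell, replicate 1 was the lowest UC3DDP library. The same share over all genes that fell was not taken, so this is not shown to be particular to the members. The part that the tilt has in the fall of these genes was not tested beyond the fit with the offset.

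**Figure D5:**
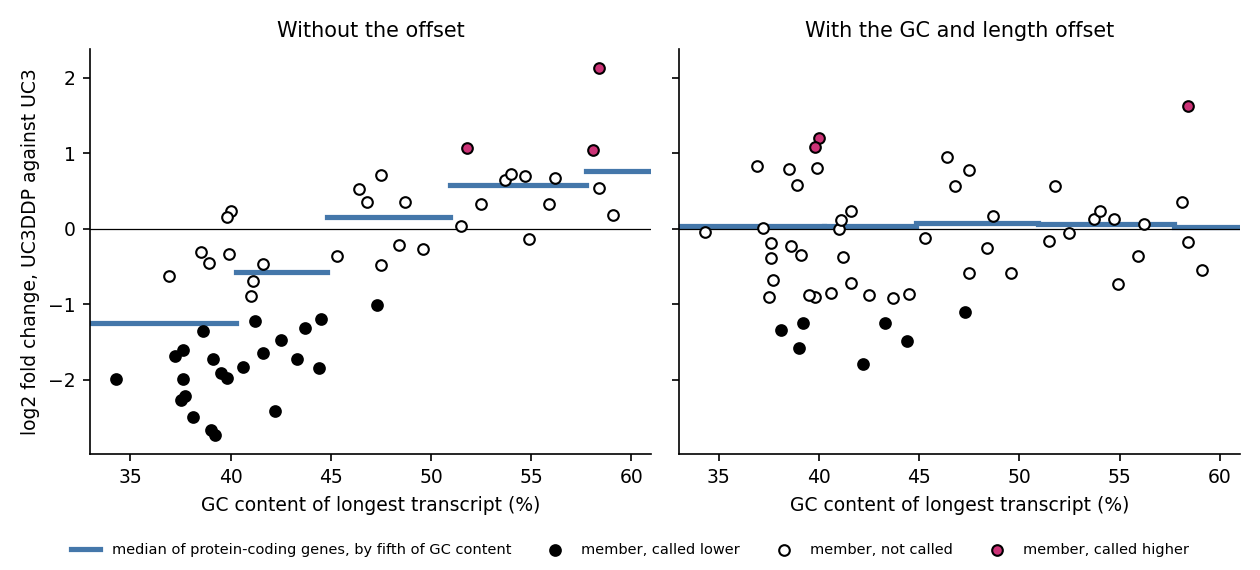
The log2 fold change of each tested member is plotted against the GC content of its longest transcript in percent, without the offset on the left and with it on the right. Points are members, filled where called, and blue bars are medians of protein-coding genes in 5 bands of GC content, the outer bars drawn only to the edge of the axis. Called-lower members crowd below 45% on the left, and 7 filled points lie below 0 on the right.

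The rest of the pathway was taken from lists fixed with earlier results of these data known. Of 22 further genes of the pore and the Ran cycle, all tested, 7 fell and none rose (31.8% lower, against 23.1% of all genes). Among them were TPR, AHCTF1, CSE1L and SEH1L, named above, NDC1, a membrane nucleoporin, and SENP1, a protease. With the offset 4 fell, namely TPR, AHCTF1, CSE1L and AAAS, and 1 rose, TMEM33 (18.2% lower, against 13.4%). RAN itself stood at 765 ± 3.21 CPM in UC3 and 730.4 ± 64.2 CPM in UC3DDP, a log2 fold change of -0.07 (edgeR adjusted p = 0.414), or 0.80 with the offset. Its exchange factor RCC1 stood at 0.14 and its activating protein RANGAP1 at 0.49, and with the offset at -0.31 and -0.23. Of 18 genes of mRNA export 15 were tested, 4 fell and 1 rose (26.7% lower, against 23.1% of all genes). With the offset 3 fell, THOC1, THOC2 and DDX39A, and none rose (20% lower, against 13.4%). THOC2, the scaffold of the THO complex, fell by 3.61 from 280.0 ± 7.10 to 22.9 ± 7.98 CPM and passed with the offset at -2.38, as did THOC1 at -1.14. ALYREF, an adaptor for NXF1, rose by 1.07 and stood at 0.41 with the offset. Of 7 proliferation markers 3 fell, MKI67, TOP2A and PCNA (42.9% lower, against 23.1% of all genes). CDK1 and CCNA2 were not called, at -0.78 and -0.59, nor were MCM2 and CCNB1, at 0.85 and 0.84. The list summed to 3007 to 3090 CPM in UC3 and 1565 to 1807 CPM in UC3DDP. Within that sum mean MKI67 went from 852.9 to 305.5 CPM and TOP2A from 1088 to 284.1 CPM. With the offset MKI67 fell, at -1.20, and CCNB1 rose, at 1.44 (14.3% lower, against 13.4%). The part of these markers in the members' values was not tested.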

How the data were processed

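Sample titles gave the line and the replicate number. Per the study's methods, the deposited gene counts were made by the authors with featureCounts, strand setting not stated, after Fastp trimming and HISAT2 alignment on GRCh38. No count was normalized, and every gene in the table had at least 10 counts over the libraries. The authors' log2 fold change, linear fold ratio, p-value and false discovery rate columns were also deposited and not used.

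Counts were tested with edgeR 4.0.16 in R 4.3.3 (quasi-likelihood, TMM scaling, filterByExpr with minimum count 10), checked on simulated data. The offset was a loess trend (span 0.3) of log2 CPM (prior count 2) on GC content of the longest GENCODE transcript and then on the length of that transcript. Exact permutation tests used SciPy 1.17.1. Precision is set by 3 libraries a line and the totals given above. DESeq2 1.42.0, limma 3.58.1 and other alternatives are treated below, of which the offset without UC3DDP replicate 1 was chosen after seeing the data. Values of each library were given for up to 3 called members a role group and direction, the highest member of each group and all importin alpha genes. Members given outside this rule, such as NUP188, NUP214 and TNPO3, were chosen after their values were seen. Members and lists were chosen with earlier results of these data known. The values of some list genes are not reported here.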

Additional observations from a re-analysis of the deposited data

How the results depend on the processing

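With library totals alone, limma voom, no filter, DESeq2 or its size factors, protein-coding genes alone or the replicate number as a block, 23 members were lower and 3 or 4 higher, and with no fold limit 34 were lower and 15 higher. The glmTreat test against the fold limit left 21 lower and 1 higher, losing NUP85, IPO13, TNPO3 and NUP153. Leaving out single libraries gave 22 to 24 lower and 1 to 3 higher, the 1 arising without UC3DDP replicate 1. The titles number the replicates and do not say that the numbers pair samples. Same-numbered libraries correlated at -0.05, -0.01 and -0.01 in their deviations. This showed no pairing, but with 3 libraries a line that differ little in UC3 it cannot exclude it. The block gave 3 higher and 23 lower with a median of -0.479.

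With the GC and length offset 3 members were higher and 7 lower. The median was -0.191 with the offset, -0.193 with the offset and the block and -0.17 with the offset and without UC3DDP replicate 1. Of all called genes 43.3% were higher without the offset and 51.6% with it. In the same order of the 3 offset settings, RANBP1 turned to -0.36, -0.36 and -0.30, RANBP3 to -0.55, -0.55 and -0.51, NUP62 to -0.17, -0.18 and -0.11, NUP214 to -0.17, -0.17 and -0.14, and NUP188 to -0.057, -0.057 and -0.016. NUP37 turned to 0.78, 0.78 and 0.71, NUP43 to 0.24, 0.23 and 0.21, NUP58 to 0.83, 0.83 and 0.85, NUP42 to 0.58, 0.57 and 0.62, KPNA1 to 0.80, 0.80 and 0.77, IPO8 to 0.11, 0.10 and 0.20, and TNPO1 to 0.0041, 0.0031 and 0.023. IPO5 turned to 0.0033 in the last setting only. Without UC3 replicate 1 and without the offset, NUP214 stood at -0.021, the low end of a range that reached 0.052, and NUP62CL at -0.030, in a range that reached 0.38. The cause of these turns was not tested beyond what the offset itself takes out.

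With 3 libraries a line, the exact permutation test of a ratio cannot go below 0.10. The pairs KPNA2 with KPNA7 and NUP210 with NUP210L were not tested.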
